A study of Mus musculus with 4 samples.

Results

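The H3K4me3 ChIP library of embryonic mouse forebrain was set against the input library made for it, 2 of the 4 libraries of the series. Both came from forebrain of CD1 mice, an outbred stock, at embryonic day 11.5, and each library used 36 pooled pieces, so the signal is an average over many embryos and over every cell type of the forebrain. The ChIP used an antibody against histone H3 trimethylated at lysine 4, and the input is sonicated chromatin DNA without immunoprecipitation. Before sequencing both went through 8 cycles of whole-genome amplification, and the restriction enzyme BpmI then removed the amplification primer. The 2 remaining libraries, a ChIP against H3K36me3 and an input for it, were sequenced without amplification and serve here only as background. With 1 library per group nothing below has a replicate check, and each test on tags compares libraries, not conditions.

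H3K4me3 is written by SET1/COMPASS and MLL complexes, which bind near the starts of active and poised genes, and it often covers CpG islands. At an active promoter the start site itself tends to be free of nucleosomes, so the mark lies on the nucleosomes on either side. In neural progenitors H3K4me3 marks the promoters of expressed genes and, together with H3K27me3, those of many silent developmental genes. The positions below are in the build mm8, for which no gene annotation was used, so regions are named by position and not by gene.

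A tag is the mapped position of 1 sequenced fragment end. On chromosomes 1 to 19 the ChIP held 7311596 tags, or 3.09 per kb of covered genome, and its input 2432167, or 1.03 per kb. The unamplified input held 22529248, or 9.51 per kb. Covered genome here means the 2368 Mb of 10 kb bins with a tag of the unamplified input, and "times the mean" below always means a library's own tags per covered kb.

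The amplified libraries stood apart from the others in how their strands lay. In the ChIP, 10.7% of plus tags had a minus tag exactly 3 bp before them, against a median of 0.539% over all offsets from -60 to 60 bp. In the amplified input the favoured offset was 37 bp after the plus tag, and 21.7% of plus tags had such a partner, against a median of 0.101%. The commonest offset reached 3.01% in the H3K36me3 ChIP (median 2.47%) and 1.12% in its input (median 0.895%). Same-strand tags 1 bp apart were 3.95 times as frequent as tags 20 bp apart in the ChIP and 27.8 times in its input, against 1.12 and 1.17 times in the unamplified libraries. Tags of the amplified libraries may thus not all be separate molecules, and to that extent the counting intervals below are too narrow. Results that rest on neighbouring tags are also given with these pairs removed, which took out 8.72% of ChIP tags and 14.04% of input tags.

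The first comparison asked how high H3K4me3 rises above its input along the genome. The amplified input rose with the number of ChIP tags up to 10 to 14 per bin, fell between there and 20 to 29, and rose again in the bins with the most ChIP tags. Bins with 1 to 9 ChIP tags held 17.8%, 41.8% and 24.2% of all ChIP tags in the classes 1 to 2, 3 to 5 and 6 to 9. In bins of 1 kb with no ChIP tag the amplified input stood at 0.280 times the mean. It rose to 1.23 times in bins with 3 to 5 ChIP tags, to 2.11 times in bins with 6 to 9 and to 2.97 times in bins with 10 to 14. In bins with 15 to 19 ChIP tags it fell back to 2.08 times, and in those with 20 to 29 to 1.26 times. From there it stood at 1.23 times in bins with 30 to 49 ChIP tags, 1.31 times in those with 50 to 99 and 1.71 times in those with 100 or more. The unamplified input showed another order, with 1.35 times the mean at 10 to 14 ChIP tags, 2.19 times at 15 to 19 and 2.70 times at 20 to 29. Bins with 10 to 14 ChIP tags were the ones richest in amplified input.

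**Figure D1:**
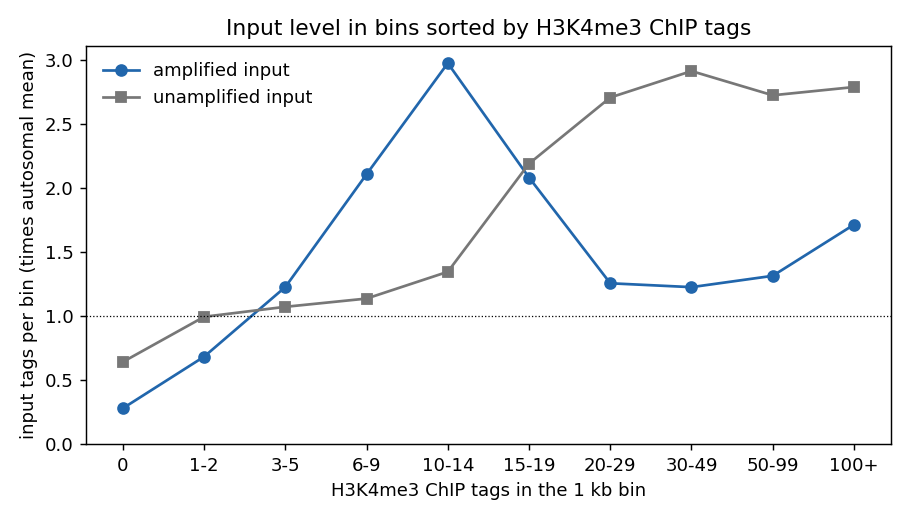
Mean tags per 1 kb bin of the amplified input (circles) and the unamplified input (squares), as multiples of each library's autosomal mean, in bins sorted by their number of H3K4me3 ChIP tags; the dotted line is the mean. The amplified input peaks at 2.97 times in bins with 10 to 14 ChIP tags and drops to 1.26 times in bins with 20 to 29, where the unamplified input reaches 2.70 times.

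Bins were called where the ChIP exceeded the scaled input at least 2-fold with an adjusted p under 0.05 (one-sided exact binomial test, Benjamini-Hochberg adjustment). Of 165840 tested bins 11997 were called, or 7.23%, against 16 (0.00965%) with ChIP and input exchanged. The exchanged count depends on the input used: with the repeats of the amplified input kept, 14772 bins were called and 36127 in exchange. A bin without an input tag was called from 20 ChIP tags and not at 19. With 1 input tag the call needed 27 ChIP tags and 26 failed. Of the bins with 20 to 29 ChIP tags 49.7% were called, of those with 30 to 49 86.8%, and of those with 100 or more 99.9%. The amplified input is shallow, so a small excess in a bin was not detectable at this depth.

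Merging called bins gave 7512 regions on the autosomes, which covered 12.3 Mb or 0.518% of the covered genome. Of the ChIP's tags 8.20% fell in them, and of the input's 0.407%. The tags that chose the regions also give their height, so heights are a description. The median region held 42.5 ChIP tags per kb, 13.8 times the mean, with quartiles of 32 and 57. The lowest held 16.7 and the highest 298.5 tags per kb, and between the 5th and the 95th percentile (23 and 89) the spread was 3.87-fold. A bin without an input tag needed 20 ChIP tags, so the call bounds the lower end of this spread. Among these called regions the top 10% by tags held 27.3% of all region tags and the top 1% held 5.34%. In all regions together the unamplified input stood at 2.68 times the mean and the amplified input, which took part in the choice, at 0.786 times. Across regions, height correlated with amplified input tags per kb at Spearman 0.425, a description within libraries that also set the call, since a bin with more input tags needs more ChIP tags. Calling against the unamplified input instead gave 30969 regions whose median height was 11 tags per kb, with 40455 bins called and 47310 when the libraries were exchanged.

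Collapsing tags to 1 per position and strand set a ceiling that few regions came near. A window of 200 bp offers 400 such places. In the median region the fullest window held 26 tags, or 6.50% of them, and the fullest window of all held 189, or 47.25%. The 3 regions of at least 2 kb with the most tags per kb show how unlike each other the highest places were. The region on chromosome 2 (77746001 to 77748000) held 298.5 ChIP tags per kb against 1.00 input and 120 unamplified input tags per kb. The region on chromosome 18 (61681001 to 61683000) held 186 against 0.500 and 13.5. The region on chromosome 2 (98463001 to 98468000) held 218 against 20.8 and 269.8. The amplified input was thus at or below its autosomal mean of 1.03 tags per kb in the first and the chromosome 18 region, whereas in the 5 kb region of chromosome 2 both inputs were more than 20 times their means. The unamplified input of the first region, at 120 tags per kb, was also far above its mean of 9.51.

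Wide regions were slightly higher than narrow ones, not lower. The 4119 regions of 1 kb had a median of 39 tags per kb, the 2406 of 2 kb 46, the 770 of 3 kb 46.3, the 146 of 4 kb 50 and the 71 of at least 5 kb 55.9. The fullest 200 bp window rose from a median of 20 tags in 1 kb regions to 47 in those of at least 5 kb, though wider regions offer more windows to choose from. Quartiles overlapped throughout, at 29 to 54 tags per kb for 1 kb and 42.65 to 66.6 for at least 5 kb. The amplified input stood at 1.13 times the mean in regions of at least 5 kb, against 0.730 to 0.801 times in the narrower classes. The unamplified input was 2.92 times in 1 kb regions and 2.41 times in those of at least 5 kb. What the inputs contributed to the heights was not tested.

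The shape of regions was measured around their middle tag. To keep the choice of the middle partly apart from the measurement, the middle was taken from tags at even positions. The profile came from tags at odd positions, over regions more than 10 kb from any other. These sets are not fully separate, since same-strand tags 1 bp apart and strand pairs 3 bp apart fall 1 in each. These are distances between deposited positions. All profiles use tags shifted 75 bp by strand, which moves the 2 tags of a strand pair further apart. Around this tag narrow regions showed 1 sharp core. Centring on a tag favours a high level there, and with strand pairs removed the top of 1 kb regions was 27.0 times the mean. In 1 kb regions the ChIP reached 31.7 times the mean at the middle and 3.38 times at 1 kb on either side, and the core was 400 bp wide, measured between the outermost steps of 100 bp that reach the level midway between the top and the mean. In 2 kb regions the top was 39.1 times and the level at 1 kb 6.60 times. Regions of 3 and 4 kb kept a core of 600 bp (tops of 41.02 and 45.6 times) on a flatter base of 10.8 and 11.4 times at 1 kb. In the 51 regions of at least 5 kb the core stood out little, with 19.98 times the mean still at 1 kb and a width of 3200 bp. Tops of all 5 width classes thus lay within 1.5-fold of each other, and the base at 1 kb rose with width.

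**Figure D2:**
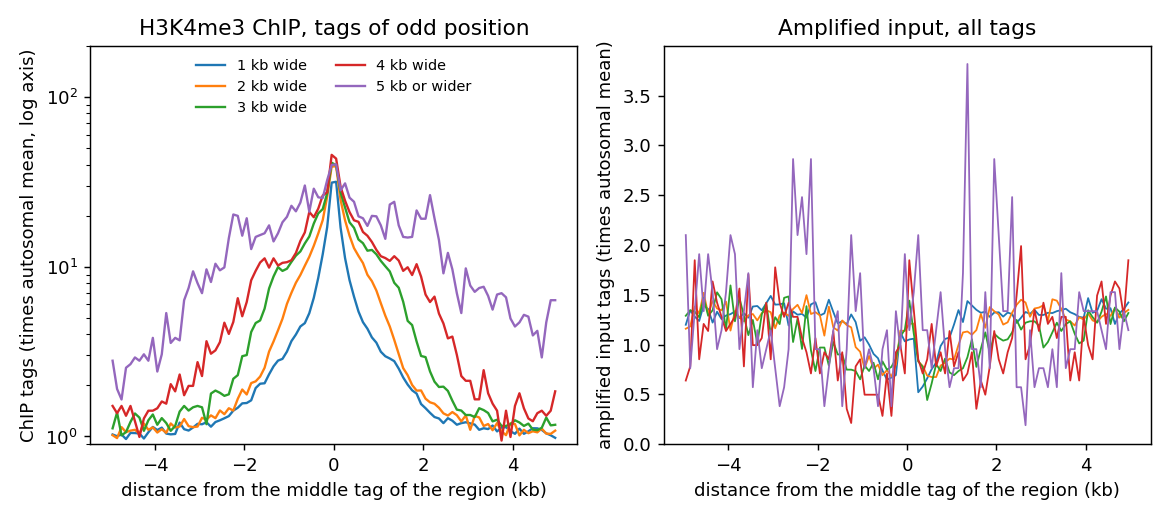
Left, H3K4me3 ChIP tags (odd positions, log axis) and right, amplified input tags, in steps of 100 bp as multiples of the autosomal mean, by distance in kb from the middle tag, with 1 line per width class of regions over 10 kb from any other. Tops lie between 31.7 and 45.6 times the mean in every class, whereas the level at 1 kb goes from 3.38 times in 1 kb regions to 19.98 times in those of at least 5 kb.

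The width of the core did not follow its height. Sorted into 4 classes at the quartiles of tags per kb, regions had tops of 17.6, 25.2, 36.8 and 60.5 times the mean, and the core was 400 bp wide in each class at a resolution of 100 bp. With strand pairs removed the tops were 16.5, 22.5, 31.2 and 46.6 times and the width was again 400 bp in each class. In 2 kb regions that removal lowered the top from 39.1 to 31.8 times and widened the core from 400 to 600 bp. The top of the core thus depended in part on paired and neighbouring tags.

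The next comparison asked whether the signal has shoulders beyond the called edges. It did, and they were short. Over both edges of all regions the ChIP stood at 3.40 times the mean (3.39 to 3.42, exact 95% counting interval) in the first kb, 1.58 (1.57 to 1.59) in the second, 1.22 (1.21 to 1.23) in the third and 1.09 (1.09 to 1.10) from 3 to 5 kb. From 20 to 40 kb it was 1.01. The amplified input rose only from 1.19 times in the first kb to 1.32 in the second and 1.34 in the third. The unamplified input went the other way, from 1.71 to 1.38 and 1.36. Divided by the amplified input the ChIP was 2.86 in the first kb, 1.20 in the second, 0.911 in the third and 0.795 from 10 to 20 kb. The neighbourhood of H3K4me3 regions was thus richer in both inputs than the genome, and beyond 2 kb the ChIP rose less than they did. Edges are borders of called bins, so a bin beside a region holds at most the tags of an uncalled bin.

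**Figure D3:**
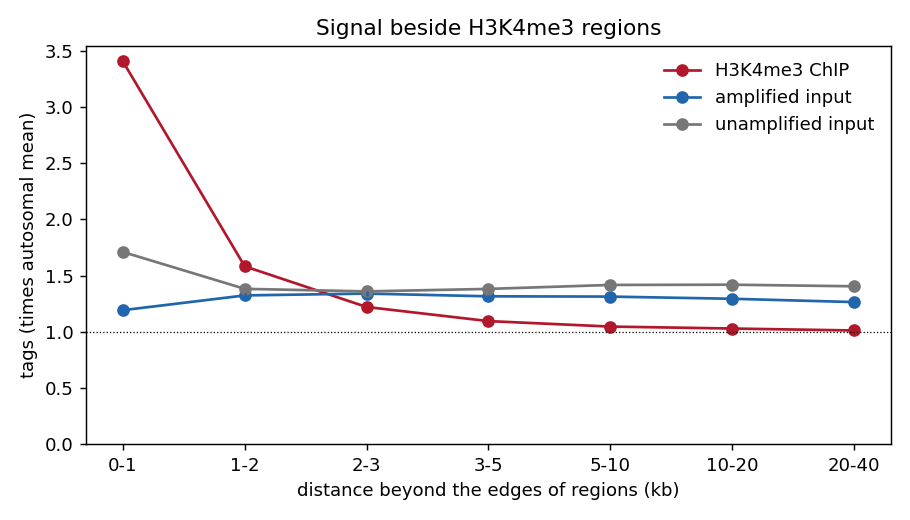
Tags of the H3K4me3 ChIP, the amplified input and the unamplified input beyond region edges, as multiples of each autosomal mean, by distance in kb; bars on the ChIP and the amplified input are 95% counting intervals, mostly smaller than the symbols. The ChIP falls from 3.40 times in the first kb to 1.22 in the third, while the amplified input stays between 1.19 and 1.34.

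Shoulders hardly changed with the height of the region they flanked, but the call itself caps the first kb. That kb is an uncalled bin in every class, with at most 19 ChIP tags without an input tag and 26 with 1. What the cap contributed was not tested. From the lowest to the highest class of region height the regions themselves rose from 8.59 to 24.5 times the mean, but the first kb beyond them only from 3.24 to 3.76 times and the second from 1.58 to 1.61. As a share of the excess inside the region, the excess of the first kb went from 29.5% in the lowest class to 11.8% in the highest. They differed more with width, since beside 1 kb regions the first kb stood at 3.80 times, beside 2 kb regions at 2.98 and beside regions of at least 3 kb at 2.79. In the third kb the values were 1.21, 1.19 and 1.33 times, so there the widest regions had the highest shoulder.

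The shoulders of single regions were unequal, as measured from edges that follow a fixed grid of 1 kb. Signal that lies off the middle of its bins reaches further past 1 edge, and what this contributed was not tested. The higher side was chosen by even tags in the first kb and measured in odd tags. This covered 6046 regions more than 10 kb from any other whose sides differed. Tags 1 bp apart and strand pairs 3 bp apart again cross this split. The chosen side held 42515 odd tags and the other 21408, a ratio of 1.99 (1.95 to 2.02). With strand pairs removed the ratio was 1.84 (1.81 to 1.87). In the second kb the same side was ahead by 1.24 (1.21 to 1.27), and from 2 to 5 kb by 1.03 (1.01 to 1.04). The sides did not follow the coordinate, since lower over higher coordinate gave 0.997 (0.987 to 1.01). The amplified input was also higher on the chosen side, 1.48 (1.43 to 1.53), and so was the unamplified input, 1.23 (1.22 to 1.24). Their part in the ChIP's inequality was not tested. The 3 most unequal regions lay on chromosome 2 (98463001 to 98468000, 39 odd tags on one side and 0 on the other), chromosome 1 (132924001 to 132926000, 32 and 0) and chromosome 9 (35055001 to 35056000, 31 and 1). The first of them is the 5 kb region named above, where both inputs stood high. Both inputs were also high in the chromosome 9 region, at 5 amplified and 168 unamplified input tags per kb. The chromosome 1 region held 0 and 32.5. On the higher and the lower side the amplified input held 14 and 0 tags, 5 and 2, and 11 and 0, in the order named.

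A dip inside the region was the next feature examined, since promoters are known for a gap between marked nucleosomes. For each region the place was chosen where even tags showed the deepest trough of 200 bp between windows of 200 bp on either side. The trough was measured in odd tags, which tags 1 bp apart and strand pairs 3 bp apart tie to the even ones. Since tags were shifted 75 bp by strand, the tags of a strand pair can fall in different windows. Over all 7512 regions the odd tags of the centre stood at 0.471 (0.465 to 0.478) of the mean of the sides. With strand pairs removed, which left 6966 regions, the value was 0.569 (0.561 to 0.578), and with the place from plus tags and the measurement in minus tags of that set it was 0.594 (0.585 to 0.603). The unamplified input stood at 1.00 (0.990 to 1.01) at these places, and the H3K36me3 ChIP at 0.906 (0.877 to 0.936). The amplified input stood lower than these, at 0.704 (0.653 to 0.758) on 967 centre tags, and 0.760 (0.701 to 0.824) on 828 tags with pairs removed. What the amplification contributed to the trough of the ChIP was not tested.

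The dips did not lie at the geometric middle of the called region. Region borders follow a fixed grid of 1 kb, so that middle is a point of the grid and not of the signal. At the geometric middle of regions the same windows gave 1.08 (1.08 to 1.09), that is no dip, and in 1 kb regions the chosen place lay a median of 160 bp from the middle. Around the chosen place the ChIP was highest from 300 to 250 bp before it (22.8 times the mean) and from 200 to 250 bp after it (22.6 times), with a minimum of 8.83 times between them. The windows of the search favour maxima within 300 bp of the place. Beyond the maxima the signal fell to 2.92 times the mean from 1500 bp outward.

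**Figure D4:**
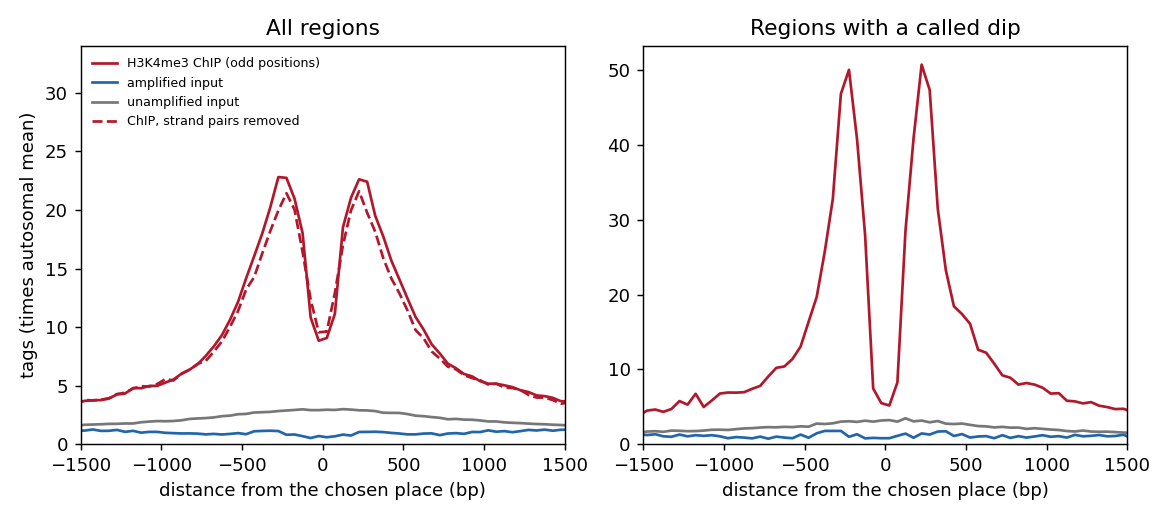
H3K4me3 ChIP tags of odd position (solid), the same with strand pairs removed (dashed, left), the amplified input and the unamplified input, in steps of 50 bp as multiples of the autosomal mean, by distance in bp from the place chosen in tags of even position; left all regions, right the 918 regions with a called dip. The ChIP drops to 8.83 times between flanks of 22.8 and 22.6 times in all regions and to 5.18 times between flanks of 50.1 and 50.8 times in called dips, which the test on these same tags selected, so their depth is a description. The unamplified input is near 3 times at the place.

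Searching any uneven library for its deepest trough will find one, so the same search was run in the unamplified libraries over the same regions. The H3K36me3 input gave 0.806 (0.793 to 0.819). The H3K36me3 ChIP gave 0.592 (0.568 to 0.617), on 2954 centre tags against 23104 in the H3K4me3 ChIP. With only every second tag position used, H3K4me3 gave 0.551 (0.541 to 0.562), or 0.660 (0.648 to 0.673) with pairs removed. Its side windows then held 50501 tags, or 40505 with pairs removed, against 51239 in the unamplified input, so tags were alike in number at the sides only. A trough of similar depth was found in the H3K36me3 ChIP, and a dip of this size cannot be called particular to H3K4me3.

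Single regions were tested for a dip with a one-sided exact binomial test of the centre against the sides in odd tags. At least 10 such tags were needed, which left 5172 of the 7512 regions. Of these, 918 or 17.7% had a called dip at an adjusted p under 0.05 (Benjamini-Hochberg). The test expects equal tags per window, but the place had been searched for a trough. At their own places the H3K36me3 input and ChIP also fell below that, at 0.806 and 0.592. Their share of calls was not computed, so calls and adjusted p here and below only rank regions. With strand pairs removed 319 of 4535, or 7.03%, were called, and with place and measurement from separate strands of that set 165 were. Windows of 140 bp left 200 calls and a tag shift of 100 bp left 358, so the number of called dips depends on these settings. In the called regions the amplified input stood at 0.722 (0.602 to 0.863), the unamplified input at 1.00 (0.969 to 1.03) and the H3K36me3 ChIP at 0.784 (0.727 to 0.845). The ratio of single tested regions had a median of 0.444 and quartiles of 0.2 and 0.750. The centre lay below the side mean in 84.4% of tested regions and held no odd tag in 8.87%.

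The dips with the lowest adjusted p lay in regions of very different width. On chromosome 11 (53167001 to 53169000, centred on 53168101) the left, centre and right windows held 8, 0 and 38 odd tags (binomial test, adjusted p = 4.1e-05). On chromosome 6 (128764001 to 128766000, centred on 128764811) they held 18, 3 and 43 (binomial test, adjusted p = 7.8e-05). The third, on chromosome 13 at 84206801 in the 27 kb region from 84188001 to 84215000, had windows of 27, 6 and 47 tags (binomial test, adjusted p = 7.8e-05). In all 3 the right window was the fuller one. These 3 regions held 1, 1 and 22 input tags in all, too few to show a dip of the input.

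Dips were found in regions of every width, height and spacing. The pooled ratio was 0.497 (0.487 to 0.508) in 1 kb regions and 0.454 (0.443 to 0.464) in 2 kb regions. In 3 kb regions it was 0.461 (0.443 to 0.479) and in 4 kb regions 0.421 (0.386 to 0.458). Those of at least 5 kb, where the search had more places to choose from, gave 0.395 (0.352 to 0.441). With pairs removed the width classes gave 0.590, 0.541, 0.579, 0.565 and 0.483 in the same order, without a steady trend from 1 to 4 kb. By height, the ratio was 0.547 (0.526 to 0.568) in the lowest class and 0.440 (0.430 to 0.450) in the highest. With pairs removed these last values were 0.618 (0.595 to 0.643) and 0.547 (0.535 to 0.560). Regions with another within 10 kb gave 0.459 (0.441 to 0.478) and those over 100 kb from any other 0.477 (0.465 to 0.489), so intervals of close and isolated regions overlapped. Called dips rose from 6.91% of tested regions in the lowest height class to 28.6% in the highest, but the test has more tags to work with in high regions.

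The H3K36me3 ChIP, which lies along transcribed bodies, gave a direction to 4709 regions whose flanks from 1 to 11 kb differed at least 3-fold in its tags. Seen from the dip, H3K4me3 was a little lower on the H3K36me3 side close by, higher further out and lower again beyond. The ratio of the H3K36me3 side to the other was 0.932 (0.918 to 0.947) from 100 to 300 bp, 0.961 (0.944 to 0.978) from 300 to 500 bp, 1.13 (1.11 to 1.14) from 500 to 1000 bp and 0.873 (0.858 to 0.888) from 1000 to 2000 bp. With pairs removed the last pair of values was 1.12 and 0.868. From 3000 to 5000 bp it was 1.02 (0.996 to 1.04). The inputs were tilted too. The unamplified input leaned the same way as the ChIP from 100 to 300 bp, 0.870 (0.855 to 0.886), and from 1000 to 2000 bp, 0.839 (0.830 to 0.848). From 500 to 1000 bp it gave 0.659 (0.650 to 0.667), against the direction of the ChIP. The amplified input gave 1.09 (0.988 to 1.20), 1.21 (1.17 to 1.26) and 1.49 (1.41 to 1.59) in these windows in the same order. From 3000 to 5000 bp both inputs were higher on the H3K36me3 side, at 1.05 and 1.18. Their part in the tilt of the ChIP was not tested.

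The last comparison asked how regions are spaced and whether height depends on spacing. Spacing was very uneven at large scale. The 7493 gaps between neighbours ranged from 2 kb, the shortest the merging allows, to 12.2 Mb, with a median of 102 kb, quartiles of 37 and 296 kb and a mean of 318 kb. The 589 gaps over 1 Mb made up 7.86% of gaps and 50.4% of all gap length. Another region lay within 10 kb of 952 regions, or 12.7% (11.9 to 13.4), within 50 kb of 49.7% (48.6 to 50.9) and within 100 kb of 68.8% (67.8 to 69.9). The share within 10 kb was 22.6% with bins of 500 bp, 18.9% with bins merged only where they touch and 26.8% against the unamplified input.

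The number of regions per window varied more the wider the window. In windows of 10 kb the variance of the number of regions was 1.00 times its mean, and merging of nearby bins holds this number down. In windows of 100 kb it was 1.5 times and in windows of 1000 kb 4.50 times. Of the windows of 1000 kb, 24.8% had no region and the fullest had 30. The number of regions per window correlated with its amplified input tags at Spearman 0.646 over 2365 windows of 1000 kb and 0.0617 at 10 kb. These are descriptions across windows of 1 ChIP and 1 input library; base composition was not computed.

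Linked at 10 kb, 6560 regions stood alone, 385 pairs formed, and 53 clusters held 3 or more regions. Linked at 100 kb, 2340 regions (31.2%) stood alone and 3802 (50.6%) were in clusters of 3 or more, the largest of 30. The fullest cluster at 10 kb held 7 regions on chromosome 13 (23431001 to 23472000), with 559 ChIP and 9 input tags in 12 kb of regions and heights of 25 to 85 tags per kb. A cluster of 6 lay on chromosome 9 (3000001 to 3037000), with 731 ChIP and 46 input tags in 17 kb. Its unamplified input stood at 77.5 tags per kb, against an autosomal mean of 9.51. A cluster of 5 lay on chromosome 19 (8938001 to 8966000), with 393 ChIP and 5 input tags in 8 kb and 26 unamplified input tags per kb.

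Height differed little with spacing, and medians of the distance classes lay between 40 and 44 tags per kb. The median was 42.8 tags per kb in the 467 regions with a neighbour within 5 kb, 43 at 5 to 10 kb, 44 at 10 to 50 kb, 42.3 at 50 to 100 kb, 41 at 100 to 500 kb and 40 in the 387 regions over 500 kb from any other. Quartiles overlapped almost fully, at 33 to 59 within 5 kb and 31.1 to 55.6 beyond 500 kb. The most isolated class was also wider, at a mean of 1.96 kb against 1.64 kb within 5 kb, and its pooled level was 16.4 times the mean against 16.3, although its median was the lowest. Pooled, regions with a neighbour within 10 kb stood at 1.03 (1.02 to 1.04) times the height of those over 100 kb from any other, and 1.02 (1.01 to 1.03) with pairs removed. The amplified input moved with distance more than the ChIP did, from 0.956 times the mean in regions with a neighbour within 5 kb to 0.736 at 100 to 500 kb and 0.850 beyond 500 kb, and its part in the small difference was not tested.

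**Figure D5:**
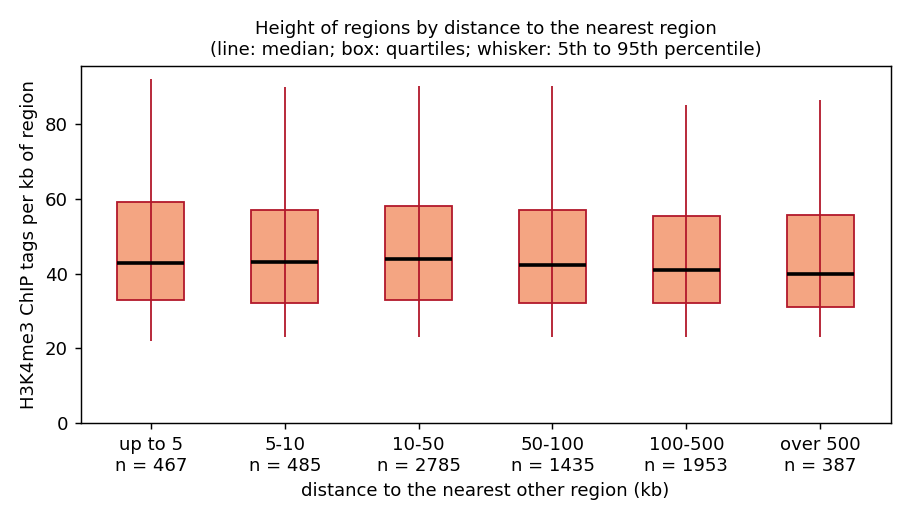
H3K4me3 ChIP tags per kb of region (linear axis) by distance in kb to the nearest other region, with the median, quartiles and 5th to 95th percentile of each class. Medians lie between 40 and 44 tags per kb in all 6 classes, and the boxes overlap.

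Heights of neighbouring regions were hardly correlated. Across the 7493 pairs of neighbours the Spearman correlation of their heights was 0.0173. It was -0.0945 over the 242 pairs with gaps up to 5 kb and 0.0584 over the 1229 with gaps over 500 kb, all within 1 library. The higher of a pair was 1.54 times the lower in the median at gaps up to 5 kb and 1.47 times at gaps over 500 kb.

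Between neighbours more than 5 kb apart the signal sank close to the genome level, and in shorter gaps it stayed above it. In the middle kb of gaps up to 5 kb the ChIP stood at 2.18 times the mean (2.08 to 2.29, 242 gaps), at 5 to 10 kb at 1.19 (1.12 to 1.27), at 10 to 50 kb at 1.01 (0.989 to 1.04) and in gaps over 500 kb at 0.878 (0.848 to 0.908). The amplified input in the same places was 1.32, 1.60, 1.40 and 0.921 times its mean, so only in gaps up to 5 kb did the ChIP rise more than the input. The unamplified input was 1.70, 1.62, 1.68 and 0.828 times its mean, so in gaps over 500 kb both inputs lay below their means as well. The middle kb was not limited to covered bins.

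Short gaps held about what the shoulders of both neighbours add up to, but gaps of 3 and 5 kb departed from the sum in opposite directions. At the distance of its middle kb from either edge, shoulders of isolated edges, with no other region within 40 kb, would add up to 3.27 times the mean in a gap of 2 kb, and 3.42 (3.16 to 3.69) was measured over 62 gaps. In gaps of 3 kb the sum was 2.17 and the measured value 1.92 (1.73 to 2.13), slightly below it. Without the fullest of these gaps, which held 34 of 374 tags, the measured value was 1.78. In gaps of 4 kb they were 1.65 and 1.46 (1.27 to 1.67). In gaps of 5 kb the measured value lay above the sum, at 1.80 (1.63 to 1.99) against a sum of 1.43. One of the 70 gaps, on chromosome 7 (70226001 to 70231000), held 43 of the 389 tags, and without it the value was 1.62, still above the sum. In gaps of 6 and 8 kb the sums of 1.27 and 1.16 lay inside the measured intervals (1.02 to 1.35 and 1.08 to 1.43).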

How the data were processed

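Each library came as a tag list deposited by the authors, with a chromosome, a position and a strand sign for every tag. The values are positions and not counts. The submitters' processing notes name the build mm8. Which aligner and read length were used is not given in the sources used here. Only chromosomes 1 to 19 were used. In the amplified input repeats had been kept, and 1 tag per chromosome, position and strand was retained (27.7% of its lines removed).

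With Python 3.11.15, numpy 2.4.6 and scipy 1.17.1, tags were shifted 75 bp by strand and counted in bins of 1 kb. In regions the commonest distance from plus to minus tags was 100 to 119 bp in the H3K4me3 ChIP and 140 to 159 bp in the unamplified libraries, so a shift of 55 bp was added as an alternative. A bin was tested if ChIP and input together held 10 tags or more. The input was scaled by library totals, the ratio had a pseudocount of 1, and called bins separated by no more than 1 uncalled bin were joined. Windows beyond edges stopped at the next region. Ratios have exact conditional binomial and shares exact Clopper-Pearson 95% intervals, which cover counting error only. For the direction by H3K36me3, both flanks had to be free of other regions and hold at least 20 tags in all. Removal of pairs took out tags 1 bp after a kept tag of their strand and minus tags at the favoured offset (within 1 bp) of a plus tag.

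The regions named by position are, for each of 4 patterns, the first 3 by a fixed rank: clusters linked at 10 kb by number of regions, dips by adjusted p, regions of at least 2 kb by tags per kb, and shoulders by the excess in odd tags. The gap of chromosome 7 was named after its value was seen. The features described and their classes were chosen with earlier results of these data known. The tests were tested on simulated data. The simulated tags were drawn independently, without strand pairs or near repeats, so they do not show how the tests act on such tags. Alternatives changed the input, its scaling, the thresholds, the bin, the merging, the shift, the pseudocount and the split of tags.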

Additional observations from a re-analysis of the deposited data

Results flagged for a closer look

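Fixed strand pairs, which lie outside the comparison of ChIP with input, appeared in both amplified libraries above the level of the unamplified ones. A minus tag exactly 3 bp before a plus tag occurred for 10.7% of plus tags of the H3K4me3 ChIP, and a minus tag exactly 37 bp after it for 21.7% of plus tags of the H3K4me3 input. In the unamplified input no offset from -60 to 60 bp exceeded 1.12%. Inside H3K4me3 regions, counting offsets within 1 bp of the favoured one, 15.5% of ChIP plus tags were paired, against 12.4% outside. In the amplified input the shares were 17.2% inside and 23.9% outside. The offsets of the ChIP and the input differ although both were amplified alike, per the labels' protocols; whether their lists state positions on the minus strand in the same way was not tested.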

How the results depend on the processing

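No paired analysis was possible because each group holds 1 library. The main values were 11997 bins, 7512 regions, a median of 42.5 tags per kb, 12.7% of regions with a neighbour within 10 kb, a close over isolated height of 1.03, a second-kb shoulder of 1.58 times the mean, a pooled dip of 0.471 and 918 called dips. Several moved by more than their counting interval, and the cause was not tested. The excess of called bins over exchanged ones (11997 against 16) turned under 2 alternatives, the unamplified input (40455 against 47310) and input repeats kept (14772 against 36127).

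With the unamplified input 30969 regions were called, the median height was 11 tags per kb, the neighbour share 26.8%, close over isolated 1.05, the dip 0.549 and the shoulder 1.06. With input repeats kept, height was 37.5, the share 14.4%, close over isolated 1.06 and the shoulder 1.47. With the input scaled on background bins, height was 45, the share 11.6% and the shoulder 1.65. With at least 20 tags per tested bin they were 39, 14.8% and 1.47, and a ratio of at least 4 gave a shoulder of 1.61. Bins of 500 bp gave a height of 60, a share of 22.6%, close over isolated 1.06, a dip of 0.508 and a shoulder of 1.88. Merging only touching bins gave a share of 18.9% and close over isolated 1.05, and a neighbour distance of 5 kb a share of 6.22%. A shift of 100 bp gave close over isolated 1.04, a dip of 0.549 and 358 called dips. Place from plus and measurement from minus tags gave a dip of 0.598, and windows of 140 bp gave 0.542 and 200 called dips.

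Added after seeing the data, removal of strand pairs and near repeats gave a height of 38.5, a share of 11.5%, close over isolated 1.02, a shoulder of 1.65, a dip of 0.569 and 319 called dips. With the strand split as well the dip was 0.594 with 165 called. A shift of 55 bp gave close over isolated 1.04 and a dip of 0.435. The shallow amplified input limits calls in bins with few tags.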
